A study of Mus musculus with 24 samples.

Results

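Cholangiocyte organoids (Cho-Orgs) at passages P5 and P10 are compared here to describe the late phase of the culture, the genes of growth and its arrest, and the genes that came up late. The members are the 3 libraries Cho-org-P5-M1 to M3 and the 3 libraries Cho-org-P10-M1 to M3, which are 6 of the 24 libraries of the series and were chosen by their labels. The cells were EpCAM+ cells taken with magnetic beads from the liver of wild-type adult BALB/c mice and grown in Matrigel, and the labels name no transgene, deletion or treatment that differed between P5 and P10. A single medium is listed for Cho-Orgs, without mention of passage. It includes Wnt3a, R-spondin1, Noggin, EGF, FGF10, HGF, gastrin, nicotinamide, N-acetylcysteine, forskolin, the ROCK inhibitor Y-27632 and A83-01, an inhibitor of the TGF-beta type I receptors. Libraries were made from poly(A) RNA, and levels are in FPKM, which counts fragments by the length of the gene and the size of the library. The study's methods state that each replicate came from its own cell culture, and elsewhere the study speaks of mice, but the labels do not say whether libraries with the same number at P5 and P10 descend from one culture or animal. The p-values measure the spread between these libraries. The labels name no harvest date or library batch, so passage cannot be told apart from differences of that kind between P5 and P10.

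Cholangiocytes are the epithelial cells that line the bile ducts, and they thin and alkalinise bile by secreting chloride and bicarbonate. In culture, Wnt and R-spondin signals keep them in cycle as progenitor-like cells. A cycling cell loads its origins with the MCM helicase, copies its DNA with PCNA and the polymerases, and then transcribes the cyclins, kinesins and ubiquitin ligase subunits of mitosis. Proteins of the Cdkn2 family block the kinases that start this sequence. Proliferation is commonly read from Mki67, which is made only in cycling cells.

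Markers of cholangiocytes were abundant in every library. Krt7, a keratin of simple duct epithelia, stood at 696, 661 and 709 FPKM in the 3 P5 libraries and at 924, 921 and 914 FPKM in the 3 P10 libraries. Krt19 was at 1319.5, 1319.9 and 1379 FPKM at P5 and at 1387, 1420.2 and 1399 FPKM at P10. Epcam, the surface protein by which the cells were sorted, was at 478, 496 and 495 FPKM at P5 and at 256, 263 and 259 FPKM at P10. None of the 3 genes overlapped between the passages, with Krt7 higher and Epcam lower at P10, and the Krt19 values lay close together. Of 33 listed genes of cholangiocyte identity 31 were tested, and of these 17 rose (54.8%) and 11 fell (35.5%), with a median log2 difference of 0.15. Over all genes tested 37% rose and 34.3% fell, so the share of falls was near that of all genes. Sox9, a transcription factor of bile duct progenitors, fell by 0.73 on the log2 scale and Elf3, an epithelial transcription factor, by 1.41. Abcb1b, an efflux pump for xenobiotics, rose by 1.04. The difference of Krt19 was 0.066 (limma, Benjamini-Hochberg adjusted p = 0.0974) and did not pass the threshold.

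Apart from Cd68, the defining markers looked at for Kupffer, endothelial and stellate cells were under 1 FPKM in all 6 libraries. These markers were only a part of the lists used below. Some listed genes outside them, such as the angiopoietin receptor Tek, did pass the filter. Hepatocyte transcripts, which were not near 0 at P5, are given further below. Csf1r, a macrophage receptor, was at 0.307, 0.413 and 0.600 FPKM at P5 and at 0.887, 0.647 and 0.847 FPKM at P10. Ptprc, Clec4f, Timd4, C1qa and Lyz2, which mark leukocytes and Kupffer cells, were listed at 0 throughout, Dcn likewise, and Stab2, Pecam1, Des and Col1a1 stayed under 1 FPKM. Each list of other cell types had 20 genes, of which 2 passed the filter for Kupffer cells, 5 for sinusoidal endothelial cells, 2 for stellate cells and 2 for lymphoid and erythroid cells. The summed level of these lists went from 74.7 to 80.4 FPKM at P5 to 14.8 to 16.2 FPKM at P10 for Kupffer cells, at P5 nearly all of it Cd68, a lysosomal glycoprotein. The sums went from 36.2 to 46.7 down to 9.83 to 10.7 FPKM for endothelial cells and from 62.4 to 64.5 down to 22.9 to 25.7 FPKM for stellate cells. For lymphoid and erythroid cells they went from 3.81 to 5.98 up to 9.35 to 9.62 FPKM, through S100a9. In bulk libraries such as these, fewer cells of a type and less RNA per cell cannot be told apart.

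The 6 libraries held about 37505000 to 38250000 fragments each, an approximate depth read from the steps between low FPKM values, and between 10679 and 11117 genes at 1 FPKM or more. The spread within a passage was small, with a median SD of 0.051 on the log2 scale at P5 and 0.040 at P10 over 3240 genes. Ranked levels correlated at 0.9954 to 0.9976 between libraries of a passage and at 0.931 to 0.935 between libraries of different passages, across genes, which are not independent replicates. P5 replicate 2 stood a little apart in interferon-stimulated genes, and its values are given there.

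Most of the transcriptome differed between P5 and P10, but few genes rose far. Of 11195 genes tested, 7983 (71.3%) passed the threshold, 4144 of them higher at P10 (37%) and 3839 lower (34.3%). The test was limma on log2(FPKM + 1) with a Benjamini-Hochberg adjusted p under 0.05, and every log2 difference below is P10 minus P5 on that scale, which understates the change of genes with low FPKM. At a difference of at least 1 on the log2 scale, 234 genes were higher at P10 (2.09%) and 709 were lower (6.33%). With a pseudocount of 0.1 the first of these became 379. The median difference over all genes tested was 0.016. An exact permutation test of 3 against 3 libraries cannot give a p under 0.1, so single genes were judged by limma. Because so large a share of genes passed, the counts of members given below are to be read against 37% higher and 34.3% lower, and a share of members near these is no result about a list.

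Genes of mitosis were at low levels at P10. Of 75 listed genes of mitosis and cytokinesis all were in the table and 72 passed the filter on low values. Of the 72, 70 fell, 63 of them by at least 1 on the log2 scale, and 1 rose, against background shares of 34.3%, 6.33% and 37%. In every P10 library 29 of the 72 were under 1 FPKM. Those 29 passed the filter through P5 alone, which favours falls in these counts. Among members with a mean of at least 5 FPKM 31 fell, and the median log2 difference was -1.72. The median member of the 72 was at 15.5% of its P5 level at P10, a median log2 difference of -1.79, compared with 101% and 0.016 over all genes tested. Mki67, which marks cells in cycle, was at 15.2, 16.3 and 15.8 FPKM at P5 and at 1.31, 1.26 and 1.26 FPKM at P10. The groups lay far apart, and the fall of 2.88 (SE 0.051, n = 3 per passage, limma adjusted p = 3.81e-10) corresponds to 12.4-fold less FPKM. Ccnb2, a cyclin that drives entry into mitosis, went from 23.4, 25.9 and 20.5 FPKM to 0.953, 1.21 and 1.04 FPKM. It had the largest difference of the list, -3.55 (SE 0.084, adjusted p = 1.68e-09). Ube2c, the ubiquitin-conjugating enzyme of the anaphase-promoting complex, went from 45.7, 39.6 and 41.3 FPKM to 3.55, 2.06 and 3.76 FPKM, a log2 difference of -3.41. All 3 genes were low in each P10 library, though above 0, and high in each P5 library. Ccnb1, the partner of Cdk1, fell by 2.95, Ccna2, the cyclin of S phase and early mitosis, by 2.95, and Hmmr, a spindle protein, by 2.88. The member that rose was Tubb4b, a tubulin that is also used outside the spindle, by 0.41. Bub3, a checkpoint protein, was the member that did not pass, at 38.1, 36.7 and 36.3 FPKM at P5 and 35, 36.4 and 34.9 FPKM at P10.

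Many promoters of the mitotic genes tested held the same short sequence elements. The cell cycle homology region (CHR), written here as TTTGAA or TTCGAA, and the CCAAT box are known as elements through which late cell cycle genes are transcribed. RefSeq promoters (250 bases before to 50 bases after the start, build GRCm38.p6) were found for 62 of the 72 genes. Both strands were searched. A CHR was found in 48 of these 62 genes (77.4%), a CCAAT box in 43 (69.4%) and both in 40 (64.5%). Per promoter the shares were 78.8%, 69.7% and 65.2%, compared with 13.5%, 37.7% and 5.46% of the 11190 promoters of all genes tested, and with 19.2%, 37.4% and 7.52% of all 32851 mouse promoters in the RefSeq table. Neither element contains the other, though their end letters can be shared. A match is a description of the letters and does not show that a factor bound there. The promoters of Ccnb2 (chr9:70421505-70421804, minus strand), Ube2c (chr2:164769679-164769978, plus strand) and Mki67 (chr7:135716330-135716629, minus strand) are shown because these genes carried the values above, with CHR and CCAAT matches of either strand in capitals:
Ccnb2: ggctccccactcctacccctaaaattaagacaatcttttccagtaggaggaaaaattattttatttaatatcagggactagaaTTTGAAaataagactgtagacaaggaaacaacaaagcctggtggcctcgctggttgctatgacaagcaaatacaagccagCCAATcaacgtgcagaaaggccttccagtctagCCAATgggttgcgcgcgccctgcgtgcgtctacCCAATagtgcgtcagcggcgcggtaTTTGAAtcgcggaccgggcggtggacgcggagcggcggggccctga
Ube2c: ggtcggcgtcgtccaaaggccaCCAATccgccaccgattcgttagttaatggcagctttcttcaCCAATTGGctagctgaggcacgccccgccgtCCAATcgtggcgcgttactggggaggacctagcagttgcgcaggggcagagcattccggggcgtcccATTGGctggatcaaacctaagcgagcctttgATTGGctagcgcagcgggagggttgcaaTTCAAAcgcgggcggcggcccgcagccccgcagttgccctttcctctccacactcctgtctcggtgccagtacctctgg
Mki67: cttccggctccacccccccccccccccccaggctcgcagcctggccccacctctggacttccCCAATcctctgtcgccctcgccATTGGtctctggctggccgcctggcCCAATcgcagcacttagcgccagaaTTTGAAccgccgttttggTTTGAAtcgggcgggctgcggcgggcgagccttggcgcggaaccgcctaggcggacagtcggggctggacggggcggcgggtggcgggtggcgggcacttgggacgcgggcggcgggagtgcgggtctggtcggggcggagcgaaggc
In Ccnb2 the CHR stood at bases -167 and 5 from the start, counting the first transcribed base as 1, and in Ube2c at base -29 on the other strand. In Mki67 it stood at bases -116 and -98.

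**Figure D1:**
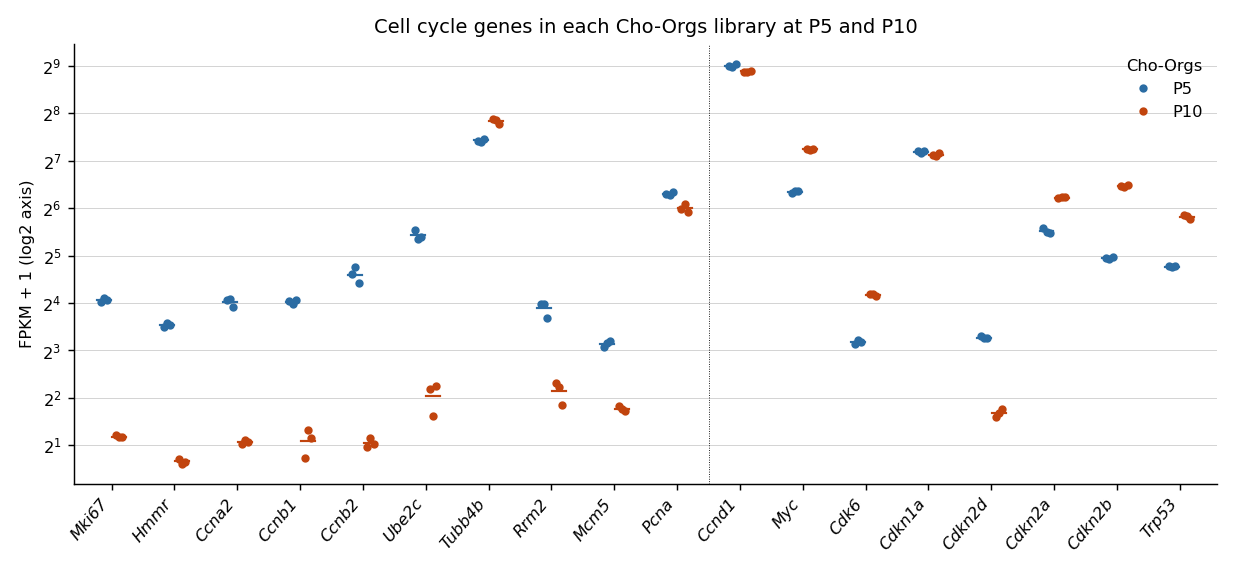
FPKM + 1 (log2 axis) of 18 genes of the cell cycle at P5 (blue) and P10 (red), where points are the 3 libraries of each passage and bars their means; the 10 genes left of the dotted line are those of mitosis and replication and the 8 to its right are G1 drivers, inhibitors and Trp53. Mki67 lies near 15.8 FPKM at P5 and 1.28 FPKM at P10, while the inhibitors Cdkn2a and Cdkn2b lie higher at P10 and Cdkn1a overlaps.

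DNA replication genes fell as a group, though less far than those of mitosis. All 44 listed genes passed the filter, 43 of them fell (97.7%) and none rose, 15 of them by at least 1, and the median log2 difference was -0.72. In every P10 library 7 of the 44 were under 1 FPKM, so these passed through P5 alone. Among members with a mean of at least 5 FPKM 24 fell, and the median was -0.70. Rrm2, a subunit of the enzyme that makes deoxynucleotides, went from 14.7, 14.9 and 11.9 FPKM to 3.96, 3.72 and 2.62 FPKM, a difference of -1.75 (adjusted p = 1.19e-06). Mcm5, a subunit of the replicative helicase, went from 7.41, 7.87 and 8.15 FPKM to 2.54, 2.41 and 2.32 FPKM, a difference of -1.36 (adjusted p = 3.84e-08). Both genes were lower in every P10 library than in any P5 library. Pcna, the sliding clamp of the polymerases, stayed abundant at 62.5, 67.3 and 59.5 FPKM after 77.5, 76.7 and 80.6 FPKM, a difference of -0.31. Mcm7 fell by 0.30, Uhrf1, which copies DNA methylation at the fork, by 1.46, and Tk1, a nucleotide salvage enzyme, by 1.30. Rfc3, a clamp loader subunit, was the member that did not pass, at 0.062. The E2F site, searched on both strands as TTTCCCGC, TTTGGCGC, TTTCGCGC or TTTGCCGC, was found in 15 of the 36 replication genes with a promoter (41.7%). It was in 34.1% of their promoters, in 4.04% of the promoters of all genes tested and in 2.26% of all promoters, while the CHR was in 9 of these genes (25%). Of the mitotic genes 6 (9.68%) held an E2F site. The promoter of Mcm5 (chr8:75109259-75109558, plus strand) is shown because it holds 2 overlapping E2F matches, 1 on each strand, at bases -153 and -149, in capitals:
Mcm5: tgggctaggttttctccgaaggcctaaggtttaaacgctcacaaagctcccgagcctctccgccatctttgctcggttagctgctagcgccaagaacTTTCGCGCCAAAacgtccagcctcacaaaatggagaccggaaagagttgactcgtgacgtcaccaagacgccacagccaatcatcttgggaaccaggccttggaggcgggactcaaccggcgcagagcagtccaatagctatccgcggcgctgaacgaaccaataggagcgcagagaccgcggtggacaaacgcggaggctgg

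Repair genes of S phase followed the same direction. Of 30 listed genes 29 were in the table and 22 were tested, of which 20 fell (90.9%) and none rose, with a median of -0.74 that became -1.35 with a pseudocount of 0.1. In every P10 library 15 of these 22 were under 1 FPKM. Those 15 passed the filter through P5 alone, which favours falls in this count. Among members with a mean of at least 5 FPKM 3 fell, and the median was -0.48. Msh6, a mismatch repair protein, was at 21, 21.5 and 19.3 FPKM at P5 and at 12.2, 12.6 and 13.2 FPKM at P10, a fall of 0.66. Brca1 fell by 0.98, Fancd2 by 1.03 and Clspn, a fork checkpoint adaptor, by 1.03, all from levels between 1 and 2 FPKM. Atr, a checkpoint kinase, was among the 2 members that did not pass.

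The genes that start the cycle did not all go down with the genes that carry it out. Of 27 listed G1/S drivers 23 were tested, 16 fell (69.6%) and 3 rose (13%), with a median of -0.45. In every P10 library 3 of the 23 were under 1 FPKM, so these passed the filter through P5 alone. Among the members with a mean of at least 5 FPKM 6 fell and the median was -0.12. Ccnd1, the cyclin of G1, stood at 509, 501 and 526 FPKM at P5 and 467, 470.1 and 476 FPKM at P10, a difference of -0.12 (adjusted p = 0.0072), and this call was lost when all 9 Cho-Orgs libraries were fitted together. Myc, a growth-promoting transcription factor, was at 78.7, 80.9 and 81.8 FPKM at P5 and at 152, 149 and 150.1 FPKM at P10, a rise of 0.89 (adjusted p = 1.51e-08). Cdk6, a kinase partner of the D cyclins, rose by 1.00 and Mycl by 0.73. Ccnd2 fell by 0.46 and Ccnd3 by 0.68. Foxm1 and Mybl2, the transcription factors of the mitotic programme, fell by 1.21 and 0.86, and Ccne1, the cyclin that opens S phase, by 0.70. Cdk4, Tfdp1, Cks1b and Lin9 did not pass the threshold.

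Among the inhibitors of the cycle, those of the Ink4 locus stood out by their rise. Cdkn2b, which encodes p15, was at 29.9, 29.5 and 30.3 FPKM at P5 and at 87.7, 85.9 and 88.7 FPKM at P10. The rise of 1.52 (SE 0.033, adjusted p = 1.43e-09) was 2.92-fold in FPKM. Cdkn2a, its neighbour on chromosome 4, whose transcripts encode p16 and p19Arf and are summed in this table, went from 47.3, 44 and 43.8 FPKM to 72.9, 74.1 and 74.1 FPKM, a rise of 0.70. Neither gene overlapped between passages. Cdkn1a, which encodes p21, was at 147, 142 and 147 FPKM and 138, 136 and 143 FPKM, with overlapping groups and a difference of -0.065 (adjusted p = 0.117). Over the whole list of 30 inhibitors, 29 were tested, 6 rose (20.7%) and 18 fell (62.1%), with a median of -0.30. Those that rose beside the Cdkn2 pair were E2f4 by 0.48, Mxd4 by 0.39, Mnt by 0.38 and Btg1 by 0.23, of which E2f4 is a repressor of cell cycle genes and Mxd4 and Mnt oppose Myc. Cdkn3, itself transcribed in mitosis, fell by 2.26, Ndrg1 by 2.14, Cdkn2d by 1.59 and Cdkn1c by 1.24.

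Trp53 itself was higher at P10 in every library, while the shares of its target genes that rose and fell were near those of all genes. Trp53 was at 26.3, 26 and 26.6 FPKM at P5 and at 57.3, 55.8 and 53.5 FPKM at P10, a rise of 1.05 (adjusted p = 1.76e-08). Of 36 p53 targets 16 rose (44.4%) and 13 fell (36.1%), near the 37% and 34.3% of all genes, with a median of 0.10 that was 0.050 without P10 replicate 3. Gadd45a, a stress sensor that slows the cycle, rose from 30.2, 30.4 and 29.3 FPKM to 104, 111 and 106 FPKM, a difference of 1.80. Zmat3 rose by 0.74 and Sesn2 by 0.69, whereas Ccng1 fell by 0.62 and Btg2 by 0.59. Of 39 genes commonly reported in senescent cells, 30 were tested, 15 rose (50%) and 14 fell (46.7%), against 37% and 34.3%, and the median of 0.046 turned to -0.0062 without a filter on low values. Of the 8 that rose by at least 1, all but Cdkn2b are secreted chemokines and cytokines that are also on the list of chemokines below. Gdf15, a stress hormone, went the other way, from 259, 289 and 263 FPKM to 106, 110.0 and 103 FPKM, a fall of 1.34, and Igfbp4 fell by 1.28 and Igfbp3 by 1.24. Glb1, the gene of the lysosomal galactosidase, was at 53.7, 57.1 and 55.5 FPKM at P5 and 30.6, 30.02 and 28.1 FPKM at P10, a fall of 0.88.

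The gene with the largest late rise was Cyp4b1, a cytochrome P450 of epithelia (chromosome 4, 115624698 to 115647721, GRCm38.p6). It was at 0.456, 0.588 and 0.408 FPKM at P5 and at 56.4, 50.04 and 51.5 FPKM at P10, 109-fold more, with a log2 difference of 5.18 (SE 0.064, adjusted p = 7.99e-11). At P0 it had been at 0.0785, 0.157 and 0.16 FPKM, so among these 9 libraries it passed 1 FPKM at P10 only. Ces2a, a carboxylesterase, was at 0.364, 0.387 and 0.385 FPKM at P5 and 16.9, 17.2 and 17.3 FPKM at P10, after 54.5, 18.3 and 38.9 FPKM at P0, so it returned after being nearly absent at P5. Vnn1, a pantetheinase, rose from 11.9, 10.7 and 10.7 FPKM to 91.6, 85.6 and 90.2 FPKM. Calcb, the calcitonin-related neuropeptide, rose from under 1 FPKM to 9.98, 10.6 and 10.1 FPKM, and Cyp2d34 from 1.2, 0.904 and 0.75 to 15, 14.3 and 16.6 FPKM. Cyp4a12a was listed at 0 in each P5 library and at 3.93, 3.6 and 3.74 FPKM at P10, so no fold is given, and its neighbour Cyp4a12b is a near-identical copy with which it may share reads. These genes were each low in all 3 P5 libraries and high in all 3 P10 libraries.

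Further genes of the 20 largest rises belong to several functions. Edn1, the vasoconstrictor endothelin, rose by 2.32, and Reg3b, a secreted lectin active against bacteria, went from 13.9, 11.8 and 14 FPKM to 90.8, 90.9 and 99.5 FPKM. The long noncoding RNAs Neat1, a scaffold of nuclear paraspeckles, and Meg3 rose by 2.26 and 2.37. Prxl2a, a peroxiredoxin-like protein, was the most abundant of these genes and went from 138, 117 and 127 FPKM to 614, 609 and 631 FPKM. Lars2, a mitochondrial leucyl-tRNA synthetase, was at 11.4, 11.8 and 11.7 FPKM and 146, 146 and 139 FPKM, but its locus overlaps an unnamed gene model, and reads of the 2 cannot be told apart.

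**Figure D2:**
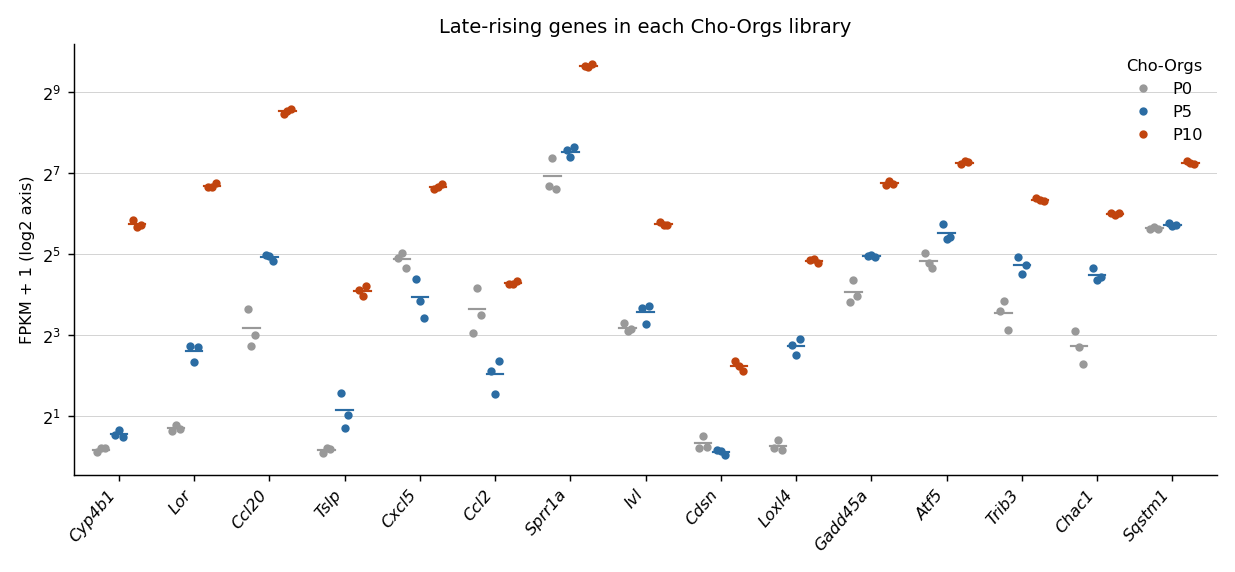
FPKM + 1 (log2 axis) of 15 genes that were higher at P10 than at P5, in the 3 libraries each of P0 (grey), P5 (blue) and P10 (red), with points for libraries and bars for means. Cyp4b1 lies under 1 FPKM at P0 and P5 and at 50.04, 51.5 and 56.4 FPKM at P10.

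Chemokines and cytokines of the epithelium were mostly higher at P10. Of 45 listed genes 44 were in the table and 26 were tested, of which 18 rose (69.2%) and 7 fell (26.9%), and 12 of the 18 rose by at least 1. In every P5 library 4 of the 26 were under 1 FPKM and so passed the filter through P10 alone, which favours rises. In every P10 library 1 of the 26 was under 1 FPKM. The median tested member stood at 203% of its P5 level, a log2 difference of 0.95. With no filter, but without the 4 listed genes at 0 in all 6 libraries, the median was 0.037. Most untested members were near 0 in both groups. Ccl20, which draws lymphocytes and dendritic cells through Ccr6, was at 30.3, 30.1 and 27.3 FPKM at P5 and at 350.4, 371 and 379 FPKM at P10. The difference of 3.6 (SE 0.048, adjusted p = 9.99e-11) was 12.5-fold in FPKM. Cxcl5, a ligand of neutrophils, went from 20.1, 13.4 and 9.8 FPKM to 96.2, 99 and 105 FPKM, and Cxcl1, with the same receptor, from 13, 11.9 and 9.89 FPKM to 45.7, 46.2 and 45.1 FPKM. Each of the 3 was higher in every P10 library than in any P5 library. Tslp, an alarmin that acts on dendritic cells, went from 1.99, 0.648 and 1.06 FPKM to 16.2, 14.6 and 17.4 FPKM, a difference of 2.98. Ccl2, which draws monocytes, rose by 2.28, Il1a by 1.90 and Csf2, the growth factor of granulocytes and macrophages, by 1.69. Il33, another alarmin, went sharply the other way, from 127, 119.7 and 126 FPKM to 2.85, 2.24 and 2.51 FPKM, 49-fold less (difference -5.15, adjusted p = 7.99e-11). Csf3 fell by 1.5 and Mif by 0.78. S100a9, a neutrophil protein on the list of blood cells that inflamed epithelia also make, moved along with this group, from 2.98, 1.95 and 1.2 to 9.01, 9.47 and 8.86 FPKM, and its part in these values was not tested.

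A kappaB motif, the element through which NF-kappaB acts on cytokine genes, was found in 5 of the 15 tested chemokine and cytokine genes that had a RefSeq promoter (33.3%). Per promoter it was in 26.3% of theirs, in 7% of those of all genes tested and in 5.8% of all promoters. The promoter of Ccl20 (chr1:83116516-83116815, plus strand) is shown as that of the member with the largest rise, with the motif at base -80 in capitals:
Ccl20: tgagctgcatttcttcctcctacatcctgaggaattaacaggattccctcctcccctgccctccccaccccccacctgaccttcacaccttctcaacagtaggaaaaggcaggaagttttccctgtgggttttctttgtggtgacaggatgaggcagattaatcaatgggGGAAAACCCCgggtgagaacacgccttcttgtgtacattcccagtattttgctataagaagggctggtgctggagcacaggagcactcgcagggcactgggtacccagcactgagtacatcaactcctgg

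Proteins of the cornified envelope, the cross-linked shell of squamous cells, did not move together. Lor (loricrin), the main protein of that shell in skin, was at 0.565, 0.719 and 0.62 FPKM at P0, at 5.6, 4.07 and 5.51 FPKM at P5 and at 99.2, 99.1 and 108 FPKM at P10. The rise from P5 of 4.10 (SE 0.092, adjusted p = 1.43e-09) was 20.2-fold in FPKM. Ivl (involucrin) went from 11.8, 8.67 and 12.2 FPKM to 54.3, 51.6 and 51.6 FPKM and Sprr1a, a small proline-rich envelope protein, from 187, 166 and 197 FPKM to 794, 781 and 829.9 FPKM. All 3 genes lie on chromosome 3, between 92080271 and 92573790 in GRCm38.p6, and none of them overlapped between passages. Cdsn, an adhesion protein of cornified cells, rose by 2.12 to 4.14, 3.72 and 3.34 FPKM. The desmosomal cadherin Dsg3 took the opposite course, from 0.23, 0.436 and 0.167 FPKM at P0 to 22.2, 23.5 and 21.9 FPKM at P5 and back to 1.45, 1.66 and 1.28 FPKM at P10. Krt13, a keratin of stratified mucosa, fell by 1.91 and Krt6a, a keratin of wounded epidermis, by 1.40. Sprr2a3 fell by 0.95, but it shares reads with its near-identical copies Sprr2a1 and Sprr2a2, and its own level is uncertain. Of 66 listed genes 61 were in the table and 29 were tested, of which 8 rose (27.6%) and 16 fell (55.2%), with a median of -0.26 that was -0.054 with no filter. The list as a whole therefore did not rise, and its 4 members with a rise of at least 1 were Lor, Ivl, Sprr1a and Cdsn.

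Genes of the integrated stress response rose together with some chaperones of the unfolded protein response. Of 40 listed genes, all tested, 30 rose and 5 fell, against 37% and 34.3% of all genes, and the median was 0.56. Atf4, the transcription factor made when translation is slowed, went from 201, 187 and 183 FPKM to 356, 361 and 372 FPKM, a rise of 0.93. Trib3, a pseudokinase and target of Atf4, went from 29.7, 21.7 and 25.5 FPKM to 82, 79.5 and 78.9 FPKM, a rise of 1.62 (adjusted p = 2.66e-07). Both genes were separate between passages. Atf5 rose by 1.75, Chac1, which degrades glutathione, by 1.52, and Ppp1r15a, which turns the response off, by 1.40. Hspa5, the main chaperone of the endoplasmic reticulum, rose by 0.69 to levels of 830.3, 820.5 and 827 FPKM. The 5 that fell were Pdia6 by 0.53, Calr by 0.39, Hsp90b1 by 0.35, Vldlr by 0.23 and Pdia3 by 0.20, most of which are chaperones or folding enzymes too. Amino acid transporters, several of them Atf4 targets, showed 12 rises (54.5%) and 7 falls (31.8%) among 22 tested. Their median was 0.26, or 0.036 with no filter on low values. Slc6a9, a glycine transporter, rose by 1.29 and Slc7a1, an arginine transporter, by 0.96. Of the 22, 1 rose and 2 fell by at least 1, and the lowest difference was -1.67. The letters TGATGNAA of the amino acid response element, searched on both strands, were found in 7 of the 36 stress genes with a promoter (19.4%). They were in 17.9% of those promoters, in 2.07% of the promoters of all genes tested and in 3.97% of all promoters. The promoter of Trib3 (chr2:152344011-152344310, minus strand) is shown as that of the member with the largest rise among the genes with a match, which starts at base 15 and is on the other strand, in capitals:
Trib3: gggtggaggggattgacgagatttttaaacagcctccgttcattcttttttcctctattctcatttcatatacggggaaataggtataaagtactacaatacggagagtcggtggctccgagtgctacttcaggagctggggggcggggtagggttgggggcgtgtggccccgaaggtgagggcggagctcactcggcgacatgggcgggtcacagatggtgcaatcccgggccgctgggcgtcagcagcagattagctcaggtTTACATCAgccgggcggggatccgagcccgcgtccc

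Smaller but broad rises were seen in 2 gene groups. The primary cilium is the sensory organelle of the bile duct cell, and of 40 listed genes of the cilium and of cystic disease 36 were tested, 25 rose (69.4%) and 1 fell, with a median of 0.35. Bicc1, an RNA-binding protein whose loss gives cysts, went from 41, 43.6 and 43.8 FPKM to 79.7, 80.5 and 79.6 FPKM, Pkd2, the ciliary calcium channel polycystin, rose by 0.73, and Kif3a, the ciliary motor, by 0.72. The member that fell was Pkhd1, the gene of fibrocystin, by 0.67. Of 83 genes of cytosolic ribosomal proteins 81 were tested, 77 rose (95.1%) and none fell, by a median of 0.38. Rplp1, at 3032, 2911 and 3000.1 FPKM at P5 and 4479.5, 4876 and 5389 FPKM at P10, was the most abundant of them. Ribosomal protein genes have many near-identical pseudogenes, so single members are uncertain. Of 80 nuclear genes of oxidative phosphorylation 67 fell (83.8%) and 2 rose, by a median of -0.33, and of 13 mitochondrially encoded genes 7 rose (53.8%) and 3 fell (23.1%), by a median of 0.30. The summed level of these 13 genes went the other way, from 38619 to 39534 FPKM at P5 down to 35606 to 35930 FPKM at P10. Their differences ranged from -1.11 to 1.47.

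The deepest fall was that of Olfm4, a secreted glycoprotein that marks intestinal stem cells (chromosome 14, 80000302 to 80023141). It was at 365, 89.1 and 149 FPKM at P0, at 417, 302 and 355 FPKM at P5 and at 1.05, 1.52 and 0.941 FPKM at P10. The fall of 7.37 (SE 0.12, adjusted p = 2.91e-10) was 306-fold in FPKM. Lgr5, the R-spondin receptor of progenitor cells, was at 11.4, 11.3 and 10.8 FPKM at P5 and at 2.72, 2.21 and 2.49 FPKM at P10, a fall of 1.81. Rnf43, which removes Wnt receptors from the surface and is itself a Wnt target, fell by 1.47 and Cd44 by 0.86. Not all of the Wnt list moved this way: of 40 listed members 23 were tested, 13 fell and 8 rose, among the latter Wnt7b by 0.53 and Wnt4 by 0.59.

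Most genes of mucus went down, and transporters of fluid secretion were mixed. Tff1, a trefoil peptide secreted with mucus, was at 315, 207 and 298 FPKM at P5 and at 4.64, 3.57 and 3.4 FPKM at P10, 70.6-fold less. Muc5ac, the gel-forming mucin of the stomach surface and airway, went from 41.8, 31.4 and 54.5 FPKM to 0.921, 1.14 and 0.875 FPKM, a difference of -4.43 (adjusted p = 1.69e-08). For both, the lowest P5 library, which was replicate 2, was still far above the highest P10 library. Pigr, the carrier of IgA across the epithelium, fell by 2.81, Muc5b by 2.29 and Agr2, which folds mucins, by 1.55. Of 28 listed genes of mucins and trefoil factors 19 were tested, 15 fell (78.9%) and 2 rose, namely Muc13 by 1.26 and Clca1 by 0.54, and the Clca1 call was lost when all 9 libraries were fitted or no filter was used. In every P10 library 3 of the 19 were under 1 FPKM, so these passed the filter through P5 alone. Cftr, the chloride channel through which bile duct cells drive secretion, was at 25, 26.5 and 29.2 FPKM at P5 and at 1.02, 1.03 and 1.06 FPKM at P10. The difference was -3.78 (SE 0.061, adjusted p = 2.8e-10), 26-fold in FPKM. Other transporters of the bile duct did not share one direction, since 9 of 22 tested rose (40.9%) and 11 fell (50%). Slc12a2, which loads the cell with chloride, rose by 1.43 and Ano1, a second chloride channel, by 0.77. Aqp5, a water channel, fell by 1.08, and Slc10a2, the bile acid uptake carrier, rose from under 1 FPKM to 3, 3.2 and 3.02 FPKM.

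**Figure D3:**
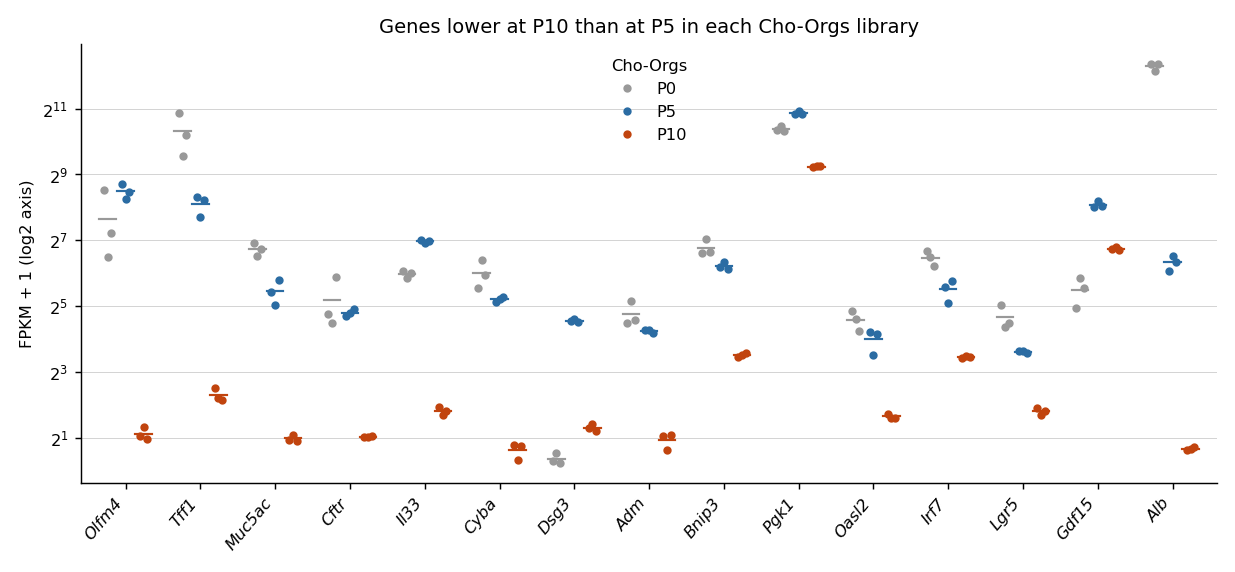
FPKM + 1 (log2 axis) of 15 genes that were lower at P10 than at P5, in the 3 libraries each of P0 (grey), P5 (blue) and P10 (red), with points for libraries and bars for means. Olfm4 lies at 302 to 417 FPKM at P5 and at 0.941 to 1.52 FPKM at P10.

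Interferon-stimulated genes fell almost without exception. Of 44 listed genes 39 were in the table and 35 were tested, of which 34 fell (97.1%), 22 by at least 1, and 1 rose. In every P10 library 7 of the 35 were under 1 FPKM, so these passed the filter through P5 alone. The median was -1.13, or -1.77 with a pseudocount of 0.1, and the median member was at 26.8% of its P5 level. Irf7, the factor that amplifies the interferon response, was at 46.7, 33.2 and 53.3 FPKM at P5 and at 9.64, 10.2 and 10.02 FPKM at P10. Oasl2 went from 17.5, 10.4 and 16.8 FPKM to 2.31, 2.05 and 2.03 FPKM and Oas3, a sensor of double-stranded RNA, from 10.3, 5.61 and 10.5 FPKM to 1.16, 1.39 and 1.3 FPKM. P5 replicate 2 was the lowest P5 library in each of the 3, yet above every P10 library, and the count of falls was 34 without it. Rtp4 fell by 1.93 and Ifi27 by 1.13. The riser was Irf1, which many cytokines induce, by 0.31. The interferon-stimulated response element (ISRE), searched as GAAANNGAAA on both strands, was found in 11 of the 25 members with a promoter (44%). It was in 36.7% of their promoters, in 2.82% of the promoters of all genes tested and in 3.44% of all promoters. The promoter of Oas3 (chr5:120777610-120777909, minus strand) is shown as that of a member with a large fall, with its match at base -75 in capitals:
Oas3: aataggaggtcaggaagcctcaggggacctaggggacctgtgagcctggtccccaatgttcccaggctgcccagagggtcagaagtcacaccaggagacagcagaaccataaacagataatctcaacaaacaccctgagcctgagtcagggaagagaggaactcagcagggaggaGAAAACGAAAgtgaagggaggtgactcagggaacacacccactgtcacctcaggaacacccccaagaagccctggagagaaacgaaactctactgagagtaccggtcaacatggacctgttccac

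Genes of glycolysis and of the response to hypoxia fell without exception. Of 42 listed genes 41 were in the table, and all 41 were tested and fell (100%), 24 by at least 1, with a median of -1.18, and the median member was at 43.4% of its P5 level. Pgk1, a glycolytic kinase, went from 1823, 1963 and 1845 FPKM to 592, 609.8 and 607 FPKM, a difference of -1.64 (adjusted p = 1.43e-09). Adm, the hypoxia-induced peptide adrenomedullin, went from 18.5, 18.4 and 17.3 FPKM to 1.05, 0.555 and 1.11 FPKM. Bnip3, a mitochondrial protein of hypoxia, went from 71.9, 80.4 and 68.6 FPKM to 9.98, 10.4 and 11 FPKM. The passages were separate for each of these genes. Car9, the carbonic anhydrase induced by hypoxia, fell by 1.57, and Slc16a3, which exports lactate, by 1.93.

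Detoxifying and sterol-making enzymes were also lower. Of 52 listed genes of xenobiotic and antioxidant response 48 were tested, 40 fell (83.3%) and 5 rose, with a median of -0.75. Nqo1, a quinone reductase, went from 14, 17.5 and 15.9 FPKM to 2.61, 2.35 and 2.93 FPKM, and Cyp1a1, the classical target of the aryl hydrocarbon receptor, from 3.43, 4.29 and 3.9 FPKM to 0.0188, 0.0191 and 0.115 FPKM. Cyp4b1, described above, was among the 5 that rose. Ftl1, the ferritin light chain, fell by 1.80 but has near-identical copies in the genome. Of 27 genes of cholesterol synthesis 23 fell (85.2%) and 1 rose, by a median of -0.55, with Stard4, a cholesterol carrier, down by 1.52 and Hmgcs1, the synthase at the start of the pathway, by 0.90. Cyba, a subunit of the superoxide-producing NADPH oxidase, was at 34, 36.3 and 37.9 FPKM at P5 and at 0.726, 0.246 and 0.668 FPKM at P10, a fall of 4.60. Nrn1, a neurite-growth protein, was at 10.4, 17.7 and 9.18 FPKM at P5 and listed at 0 in each P10 library.

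Most of the hepatocyte transcripts that passed the filter fell. Of 60 listed genes of hepatocyte secretion and metabolism 22 passed the filter, of which 21 fell (95.5%) and 1 rose, with a median of -2.06. Of these 22, 9 were under 1 FPKM in every P10 library and so passed through P5 alone. With no filter, but without the 10 listed genes at 0 in all 6 libraries, the median was -0.60. Over the tested members with a pseudocount of 0.1 it was -3.37. Alb, the main plasma protein of hepatocytes, was at 5202, 4526 and 5254 FPKM at P0, at 66.5, 91.3 and 80.7 FPKM at P5 and at 0.534, 0.569 and 0.647 FPKM at P10. The groups did not overlap at any step, and the late difference was -5.66 (SE 0.098, adjusted p = 3.49e-10). Apoe, a lipoprotein component, fell by 3.66 and Fgb, a fibrinogen chain, by 3.13. Itih2 was the member that rose, by 0.55. The 5 tested genes of the endothelial list and the 2 of the stellate list also fell, with Tek, an angiopoietin receptor, down by 2.89 and Reln by 2.95. In every P10 library 3 of these 5 and 1 of these 2 were under 1 FPKM, so they passed the filter through P5 alone. Of the 2 tested genes of the macrophage list Cd68 fell by 2.84 and Aif1 rose by 0.82. Apart from Cd68, the defining markers looked at for those cells were under 1 FPKM as given above. Tek and Reln were not among those markers. The part of such cells in these falls was not tested.

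The late step from P5 to P10 was compared with the early step from P0 to P5 in a fit of all 9 Cho-Orgs libraries, testing whether the 2 steps differed. The P5 libraries enter both steps, so the levels at the 3 passages are given and no agreement between the steps is read. Of 11195 genes, the late minus early difference was positive in 2221 (19.8%) and negative in 3222 (28.8%). Leaving out replicate 3 of each passage reduced the calls from 5443 to 3210, with 1159 positive and 2051 negative, and with median-ratio size factors they split into 2813 positive and 2698 negative. P0 libraries spread more than the others, with a median SD of 0.107 on the log2 scale.

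The loss of mitotic transcripts belonged more to the late step than to the early one, and that of replication transcripts did not. The mean level of the 72 mitotic genes was 3.83 to 4.30 on the log2(FPKM + 1) scale at P0, 3.16 to 3.28 at P5 and 1.46 to 1.49 at P10. The difference between steps was negative in 52 of them and positive in 2. Mki67, at 44.9, 30.00 and 37 FPKM at P0, had a late minus early difference of -1.71 (limma adjusted p = 0.00011), and Ccnb2, at 48.8, 38.4 and 37.7 FPKM at P0, of -2.74 (adjusted p = 4.87e-06). The 44 replication genes averaged 3.69 to 4.17 at P0, 2.97 to 2.99 at P5 and 2.18 to 2.25 at P10, and the steps differed in 9 of them, positive in 8. Mcm7, for example, went from 67.1, 43.9 and 51.1 FPKM at P0 to 22, 21.9 and 22.2 FPKM at P5 and 17.3, 18.2 and 17.5 FPKM at P10, with a difference between steps of 0.93 (adjusted p = 0.00491). For Mcm5, at 40.5, 22.9 and 29.2 FPKM at P0, the steps did not pass as different (adjusted p = 0.195).

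Other groups turned between the steps. Genes of glycolysis and hypoxia had a median early difference of 0.08 and a negative difference between steps in 37 of 41 members. Pgk1 was at 1313, 1410.2 and 1289 FPKM at P0, below its P5 level and above its P10 level. Genes of xenobiotic response had a median early difference of 0.23 and a negative difference between steps in 34 of 48, and cholesterol genes 0.09 and 19 of 27. The p53 targets had a median early difference of 0.70 and a late one of 0.10, with the difference between steps negative in 24 of 36. Cdkn1a, at 76.5, 122 and 109 FPKM at P0, did not pass for a difference between its steps (adjusted p = 0.0606), nor did Cdkn2a, at 26.2, 14.7 and 23.7 FPKM at P0 (adjusted p = 0.308). Cdkn2b, at 14.5, 17.9 and 22.1 FPKM at P0, had a larger late than early rise, by 0.81 (adjusted p = 0.00778). Gdf15, at 29.6, 56.9 and 45.8 FPKM at P0, 259, 289 and 263 FPKM at P5 and 106, 110.0 and 103 FPKM at P10, and Dsg3 had their highest levels at P5.

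Some of the late risers had been higher at P0 than at P5, and others had not. Ccl20, at 11.4, 5.65 and 7.02 FPKM at P0, was higher at each passage than at the one before, and its late difference was the larger by 1.81 (adjusted p = 0.00109). Reg3b, at 71.4, 45.1 and 106 FPKM at P0, and Meg3, at 14.8, 8.03 and 15.6 FPKM at P0, were lowest at P5. Ivl, at 8.88, 7.52 and 7.9 FPKM at P0, stayed near its P5 level in the early step, and its late rise was larger by 1.81 (adjusted p = 5.83e-05). Trib3, at 11.2, 13.4 and 7.74 FPKM at P0, and Chac1, at 7.63, 5.52 and 3.85 FPKM, were higher at each passage than at the one before, and their steps did not pass as different (adjusted p = 0.241 and 0.478).

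**Figure D4:**
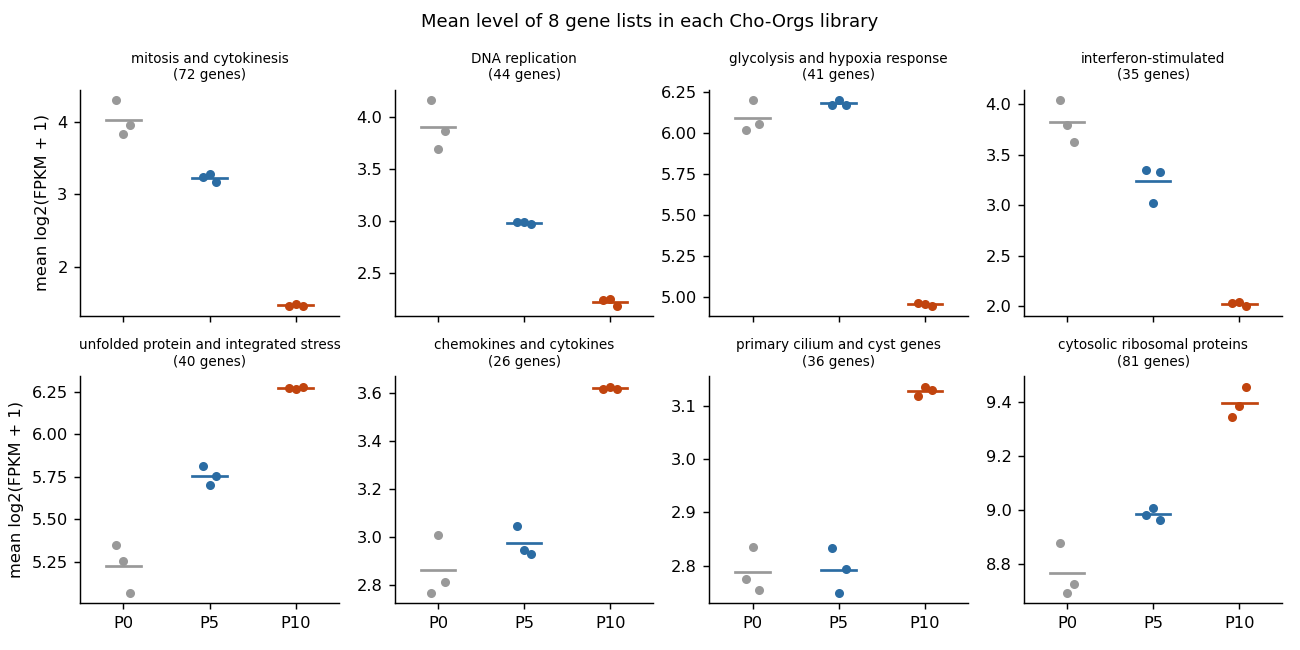
Mean log2(FPKM + 1) of the tested members of 8 gene lists in each of the 9 Cho-Orgs libraries at P0, P5 and P10, with 1 point per library. The mitosis list lies at 3.16 to 3.28 at P5 and at 1.46 to 1.49 at P10, while the chemokine list is highest at P10.

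The remaining lists had smaller or mixed differences, to be read against the background of 37% higher and 34.3% lower. Of 37 tested Hippo targets 17 rose and 12 fell (median 0.10), with Ankrd1 up by 0.99 and Ccn2 down by 0.35. Of 32 genes of EGF and HGF signalling 17 rose and 9 fell (median 0.15), with Tgfa, an EGF receptor ligand, up by 1.05, Egfr up by 0.73 and Areg, another ligand, down by 0.33. Of 27 genes of the TGF-beta and BMP response 17 rose and 7 fell (median 0.20). None rose by at least 1, while 5 fell by at least 1, and the differences ranged from -3.06 to 0.84. Bmp4, at 26, 25.4 and 26.5 FPKM at P5 and 48.5, 45.3 and 47.7 FPKM at P10, rose by 0.84. Of 26 Notch genes 7 rose and 10 fell (median -0.0060), with Jag1 up by 0.59 and Hey1 down by 1.09. Of 29 immediate early genes 13 rose and 13 fell, with Atf3 up by 1.69 and Nr4a1 down by 2.29.

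Structural genes were likewise mixed. Of 30 collagens, laminins and integrins 10 rose and 14 fell, the basement membrane chains Col4a1 and Col4a2 by 2.02 and 1.64, while Lama5 rose by 0.52 and Itga2 by 0.63. Of 27 matrix remodelling enzymes 11 rose and 15 fell, with Loxl4, a lysyl oxidase, up by 2.11, Plat, a plasminogen activator, up by 1.39 and Loxl2 down by 1.64. Of 38 junction genes 12 rose and 15 fell, with Cgn, a tight junction adaptor, up by 0.94 and Cldn6 down by 1.23. Cdh1, the epithelial cadherin, was at 241, 244 and 243 FPKM at P5 and 276, 270.5 and 263 FPKM at P10, a rise of 0.15. Of 40 lysosome and autophagy genes 8 rose and 25 fell (median -0.38), with the autophagy receptor Sqstm1 up by 1.52 and Lamp2, a membrane protein of lysosomes, down by 1.19. Of 26 genes of fatty acid synthesis 7 rose and 14 fell (median -0.31), with the desaturase Scd1 down by 1.13.

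**Figure D5:**
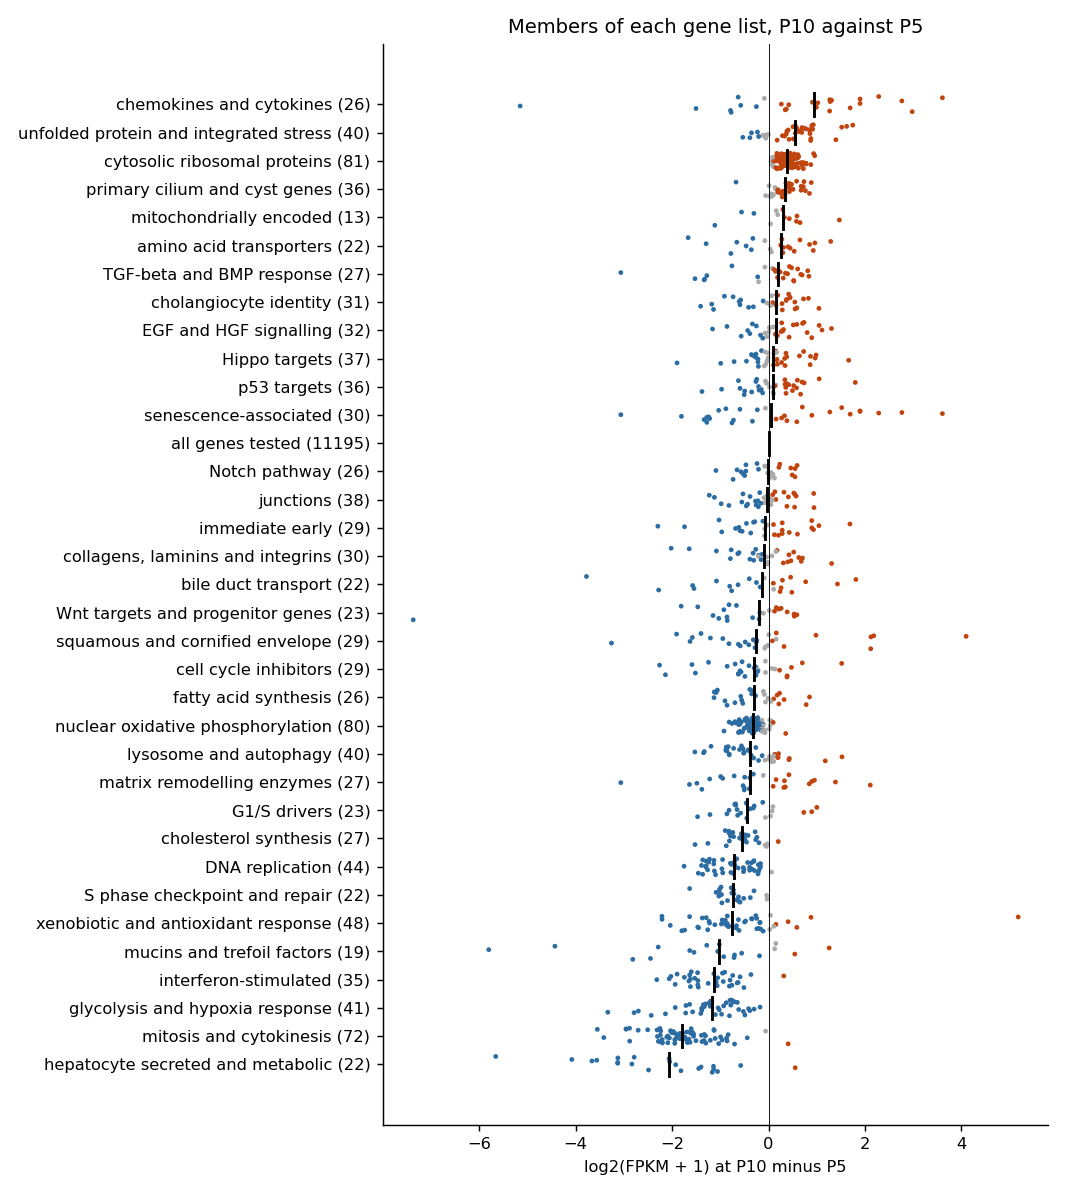
Log2 difference P10 minus P5 on log2(FPKM + 1) of every tested member of the gene lists shown. Each gene is 1 dot: red called higher, blue called lower, grey not called. A black bar marks the list's median, and for all genes tested the median alone is drawn. The lists of Kupffer, endothelial, stellate, and lymphoid and erythroid cells, with few tested members, are not shown. The median is -1.79 for mitosis, -2.06 for hepatocyte genes, 0.95 for chemokines and cytokines and 0.016 for all genes tested.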

How the data were processed

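Poly(A) libraries of Cho-Orgs were compared between P5 and P10, with 3 libraries per passage. The deposited values are FPKM per gene, listed by symbol in a table normalized by the authors. The submitters' processing notes name featureCounts 2.0.3, edgeR 3.40.2 and mm10, and the aligner is not given in the sources used here. Read counts were not recovered, so no count test was run. Genes that reached 1 FPKM in 3 or more of the 6 libraries were tested on log2(FPKM + 1) with limma 3.58.1 (R 4.3.3, lmFit, eBayes with trend), two-sided, with Benjamini-Hochberg adjustment. Python 3.11.15 with numpy 2.4.6, pandas 2.3.3 and matplotlib 3.10.9 served for the rest. The model was tested on simulated data of 11195 genes with 200 changed, and it recovered 95% of changes of log2 0.5 and 100% of changes of 1 and 2, with 13 false among 203, 11 among 211 and 9 among 209 called. The simulated coefficient of biological variation was 0.05. Far more genes were called in the data, 7983 of 11195, so these rates cannot be carried over to the calls above. Depth was estimated from the steps between low FPKM values and is approximate.

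The members and the gene lists were chosen with earlier results of these data known. Named genes are, per list, up to 6 called members in each direction with the largest difference and no overlap, the 2 most abundant members, up to 20 called genes without overlap in each direction with the largest differences over all genes (passing over symbols without a name), the genes that the study names, and list members under 1 FPKM that define a cell type. Bub3, Rfc3, Atr, Cdk4, Tfdp1, Cks1b and Lin9 were added after their values were seen, and a few genes that the rule names are not reported here. Gene positions and promoters come from RefSeq, GRCm38.p6. Replicate numbers were not used as pairs, since the deviations of libraries with the same number correlated at -0.029, -0.0033 and -0.081 between P5 and P10. Alternatives were another pseudocount, other filters, TPM, size factors, no trend, all 9 libraries, a replicate block and leaving out each library.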

Additional observations from a re-analysis of the deposited data

How the results depend on the processing

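With a pseudocount of 0.1, 379 genes were higher by at least 1 on the log2 scale. Restricting the test to genes whose mean reached 5 FPKM, which leaves fewer genes by construction, gave 2529 genes lower, 152 higher and 354 lower by at least 1, and lowered the counts of members called to 31 lower for mitosis, 24 for DNA replication, 6 for G1/S drivers, 3 for S phase repair and 19 for interferon-stimulated genes, and 10 higher for chemokines and 16 for cilium genes. The fit without a filter on low values still left out genes at 0 in all 6 libraries. In it the median of the senescence list became -0.0062 and that of the Kupffer cell list 0.0038. Of the 20 Kupffer cell genes 11 were at 0 in all 6 libraries and so were left out. The late against early calls ranged from 3210 to 4441 when 1 replicate number was left out, with 1159 to 1773 positive and 2051 to 2675 negative, the lowest without replicate 3. The cause of these shifts was not tested. With the replicate block, 7771 genes were called, and of 400 named genes Cox7a2l and Fth1 lost the threshold and Muc1 passed it, so the block changed no other call among them. With all 9 libraries in the fit, 16 of the 400 lost it, among them Ccnd1, Krt8, Krt18, Aqp1 and Slc7a11. Counts over all genes stayed within 1.5 times under the other alternatives run. Members called lower for mitosis (70) and for interferon-stimulated genes (34), and higher for chemokines (18), were the same count in each fit that left out 1 library. Rare transcripts near 1 FPKM rest on few fragments, and their differences are understated by the pseudocount.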

Other observations

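A neighbourhood of imprinted genes on chromosome 12 was higher at P10 than at P5. Meg3, a noncoding RNA of the maternal copy of the Dlk1-Dio3 domain, and Dio3os, at its far end, were among the 20 largest rises, and Rian, Mirg and Dlk1 were then looked up, so these 3 were chosen after the values of the first pair were seen. Meg3 was at 14.8, 8.03 and 15.6 FPKM at P0, 5.83, 6.34 and 7.24 FPKM at P5 and 36.8, 38.6 and 37 FPKM at P10. Rian, at 13.2, 12.8 and 14.6 FPKM at P5 and 50.3, 51.5 and 50.4 FPKM at P10, had a log2 difference of 1.83 (limma, Benjamini-Hochberg adjusted p = 3.13e-09). Mirg, at 0.855, 1.15 and 1.31 FPKM at P5 and 5.18, 6.65 and 5.56 FPKM at P10, had a difference of 1.69 (adjusted p = 4.26e-07). Dlk1, a protein-coding gene of the paternal copy, was at 18.5, 6.29 and 12.3 FPKM at P0, at 0.345, 0.0641 and 0.229 FPKM at P5 and at 3.62, 3.31 and 2.96 FPKM at P10. The 5 genes were each lower at P5 than at P0 and higher at P10 than at P5, with no overlap between P5 and P10. Reads of the noncoding genes of this domain may be shared between neighbouring transcripts.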
